A study of Mus musculus with 23 samples.

Results

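The genes described here encode hemoglobin chains and proteins that help the red cell carry oxygen and carbon dioxide. They were chosen by name, as every probe whose gene symbol in the array's annotation is Hba-a1, Hbb-b1, Hbb-b2, Hbq1b, Ahsp, Car1, Car2 or Bpgm and which were detected (deposited detection p under 0.05) on 3 or more of 23 arrays, plus every further probe of a globin chain. Of the 8 named genes, 6 had a probe, 1 each, and all 6 probes passed. Hbb-b1 and Ahsp, the chaperone of free alpha chains, are named on no probe of the annotation used and were not analysed here. The further globin probes that passed were those of Hbb-bt and Hbq1a, so 8 probes are described, of 18423 that passed and 34492 in all. The probes of the embryonic chains Hba-x and Hbb-bh1 did not pass, with detection on 0 and 1 of 23 arrays, and their signals ranged from 81.7 to 115 and from 91.4 to 124.

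Expression was measured in whole spleens of male mice, 10 weeks old, of the inbred strains C57BL/6J and DBA/2J. In each strain a sham-exposed control group, a low dose group (10 cGy of whole body gamma rays from 137Cs, at 9 cGy per hour) and a high dose group (1 Gy from 60Co, at 6 Gy per minute) were sampled 24 h later. One array held equal amounts of RNA from 2 mice of a group, and every group had 4 such pools except DBA/2J low dose with 3. Dose, dose rate and source change together and cannot be told apart, and p-values measure the spread between pools, not between single mice. Pool numbers only name the pools.

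Adult hemoglobin is a tetramer of 2 alpha and 2 beta chains, each holding a heme, and its messenger RNA builds up as erythroblasts mature and persists in reticulocytes after the nucleus is lost. The mouse spleen, unlike the adult human spleen, makes red cells throughout life, and erythroid precursors are among the radiosensitive cells of blood formation. The strains differ in their beta globin locus. C57BL/6J carries the haplotype called single, whose adult genes are Hbb-bs and Hbb-bt, and DBA/2J the haplotype called diffuse, whose adult genes are Hbb-b1 and Hbb-b2. A probe with 1 of these names therefore meets different genes in each strain. Which transcript each beta globin probe read in each strain, including whether the Hbb-bt probe reads Hbb-b1, was not tested. In a bulk tissue, fewer red cell precursors and less RNA per precursor cannot be told apart, and this holds for every change below.

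The promoters of the globin probes' genes are shown because they differ in the sequence elements known from adult globin genes. The letters are the 250 bases before the start site from RefSeq (build GRCm38.p6, from C57BL/6J), written along the gene's strand. They lie at chr11:32283422-32283671 on the forward strand for Hba-a1, chr7:103813924-103814173 on the reverse strand for Hbb-bt, chr11:32286714-32286963 on the forward strand for Hbq1b and chr11:32299819-32300068 on the forward strand for Hbq1a. Of 10 genes looked up, 5 were in the table. Capitals mark GATAA (bound by GATA factors), CACCC (bound by Klf1 and its relatives), CCAAT and TATAA on either strand. No matches shown share a base.
Hba-a1: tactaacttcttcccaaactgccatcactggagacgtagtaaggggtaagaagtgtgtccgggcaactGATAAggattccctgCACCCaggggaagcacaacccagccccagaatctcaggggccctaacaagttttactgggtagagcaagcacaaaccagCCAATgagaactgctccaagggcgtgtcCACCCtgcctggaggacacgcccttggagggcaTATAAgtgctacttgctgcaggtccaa
Hbb-bt: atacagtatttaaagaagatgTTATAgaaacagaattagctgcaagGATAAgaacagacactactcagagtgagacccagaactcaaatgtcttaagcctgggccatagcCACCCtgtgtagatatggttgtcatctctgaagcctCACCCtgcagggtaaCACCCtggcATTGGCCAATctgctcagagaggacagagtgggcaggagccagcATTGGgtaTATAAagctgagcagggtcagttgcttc
Hbq1b: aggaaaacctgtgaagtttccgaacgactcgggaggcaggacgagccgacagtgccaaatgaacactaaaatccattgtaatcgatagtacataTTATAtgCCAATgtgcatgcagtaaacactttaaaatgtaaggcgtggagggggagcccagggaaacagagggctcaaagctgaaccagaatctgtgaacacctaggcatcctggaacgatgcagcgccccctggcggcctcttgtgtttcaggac
Hbq1a: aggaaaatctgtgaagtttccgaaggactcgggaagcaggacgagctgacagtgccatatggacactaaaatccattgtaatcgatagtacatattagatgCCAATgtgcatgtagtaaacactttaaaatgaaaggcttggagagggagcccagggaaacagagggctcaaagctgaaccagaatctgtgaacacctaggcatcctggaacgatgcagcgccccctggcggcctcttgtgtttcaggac
The Hba-a1 promoter holds each of these 4 elements, with GATAA at position -182, CACCC at -167 and -60, CCAAT at -88 and TATAA at -27 from the start site. In Hbb-bt GATAA stands at -204, CACCC at -140, -104 and -89, CCAAT or its complement at -80, -75 and -36, and TATAA at -28, with a complement at -229. The theta globin genes have neither GATAA nor CACCC in this window. Hbq1b has CCAAT at -149 and the complement of TATAA at -156, and Hbq1a has CCAAT at -149 only. Among 32851 promoter windows of that length, 22.6% hold GATAA, 52.0% CACCC, 33.8% CCAAT and 22.8% TATAA, and 0.968% hold all 4. Hbq1b and Hbq1a differ at 11 of 250 positions, and Hba-a1 shares a run of 247 bases with Hba-a2, its neighbour copy. Whether the probes of Hba-a1, Hbq1b and Hbq1a separate the copies was not tested, so their values are uncertain as to the copy. The Bpgm window, not shown, has 3 matches to CCAAT and none to the other motifs.

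Between 14233 and 16002 probes were detected per array. The DBA/2J low dose pools stood apart from DBA/2J control, with 1430 of 18423 probes called and 8 of 8 measured granulocyte markers higher (summed signal 166291 to 212431, against 19077 to 81009 in DBA/2J control). Summed signals, here and below, add the brightest passing probe of each marker after the deposited signals were scaled to a common median. C57BL/6J control pools 1 and 4 reached 172557 and 144235 on these markers. DBA/2J low dose pool 2 was unlike pools 1 and 3 in the summed signal of B cell (28473, against 7839 and 11754) and early erythroid markers (7610, against 30232 and 31462). Pancreatic digestive enzyme transcripts were abundant in C57BL/6J control pool 1 and high dose pool 1 (summed signal 196213 and 197541), and lay at 3594 or below in every other pool. The background level inferred from the deposited detection p-values (158 to 227) exceeded the median signal of undetected probes (80.2 to 111), which compresses dim probes towards a floor near 7.79 on the log2 scale. For this reason a second estimate, with the background taken from undetected probes and chosen after seeing the data, is given beside the main one where it changes a call or a size. The brightest globin signals lay near the top of the scale: Hba-a1 reached at least 82.4% of the highest signal on its array and Hbb-bt between 56.9% and 82.9%. Changes of these probes may be understated, which was not tested.

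**Figure D1:**
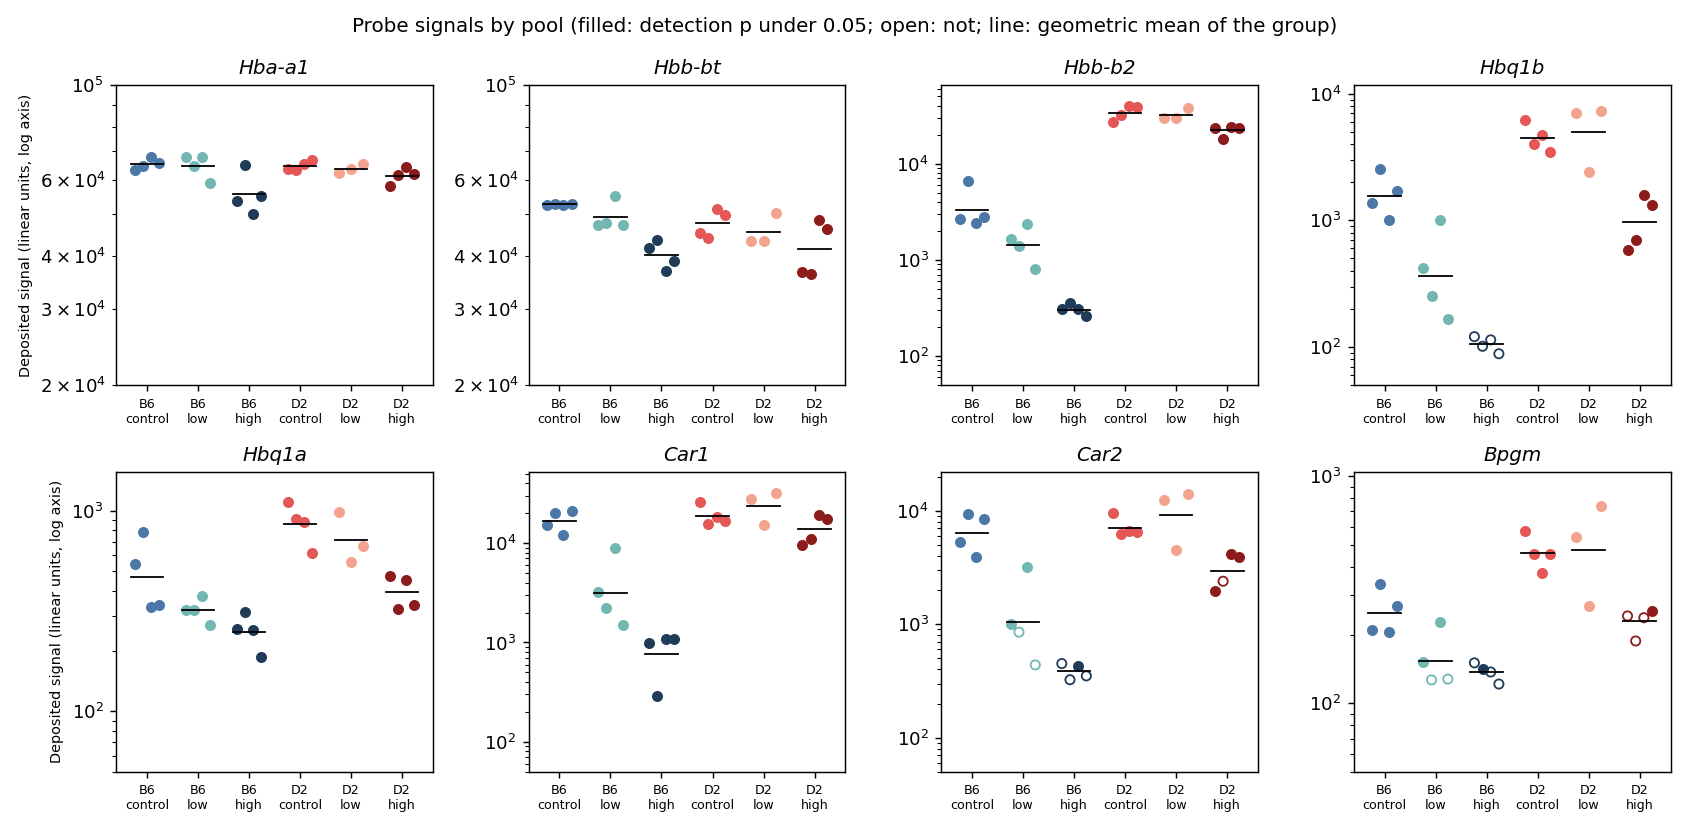
Deposited signal of each of the 8 probes (linear units on a log axis) in every pool, by strain (B6, C57BL/6J; D2, DBA/2J) and dose group. Filled points had a detection p under 0.05, open points did not, and lines are geometric means of the groups. In C57BL/6J the Car1, Car2, Hbb-b2 and Hbq1b lines step down from control to low to high dose, and Hba-a1 stays between 49926 and 68047 throughout. There, points of Car2 overlap between both doses, and points of Hbq1b between control and low dose.

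In C57BL/6J 24 h after 1 Gy, 6 of the 8 probes fell: Car1, Car2, Hbb-b2, Hbq1b, Hbb-bt and Hba-a1. Over all probes 2.35% were called lower in that comparison. With the background from undetected probes 7 of 8 were called lower, against 4.51% of all probes, with Hbq1a and Bpgm added and Hba-a1 lost. After 10 cGy in the same strain 4 of 8 fell, namely Car1, Car2, Hbb-b2 and Hbq1b, against 1.06% of all probes, and 5 of 8 with the second background, which added Bpgm, against 2.81%. Between both doses in C57BL/6J, 2 of 8 were lower after the high dose (Hbb-b2 and Hbb-bt), against 0.0543% of all probes. The second background also gave 2 of 8 there (Hbb-b2 and Hbq1b), against 0.114%.

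In DBA/2J the high dose lowered 1 of 8 probes, Hbq1b, against 0.380% of all probes. With the second background 3 of 8 were lower (Hbq1b, Hbq1a and Bpgm), against 1.03%. The low dose in DBA/2J changed 0 of 8 in either direction by limma, with 0 of 8 also at an unadjusted p under 0.05, although 7.76% of all probes were called. The second background gave 0 of 8 and 9.88% as well. High dose against low dose in DBA/2J gave 5 of 8 lower (Hbq1b, Car2, Hbq1a, Bpgm and Hbb-bt), against 16.1% of all probes, and 4 of 8 against 15.4% with the second background, which lost Hbb-bt. That comparison rests on the low dose pools that stood apart from DBA/2J control. The comparisons within a strain share groups, so they are given side by side and not as independent results.

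**Figure D2:**
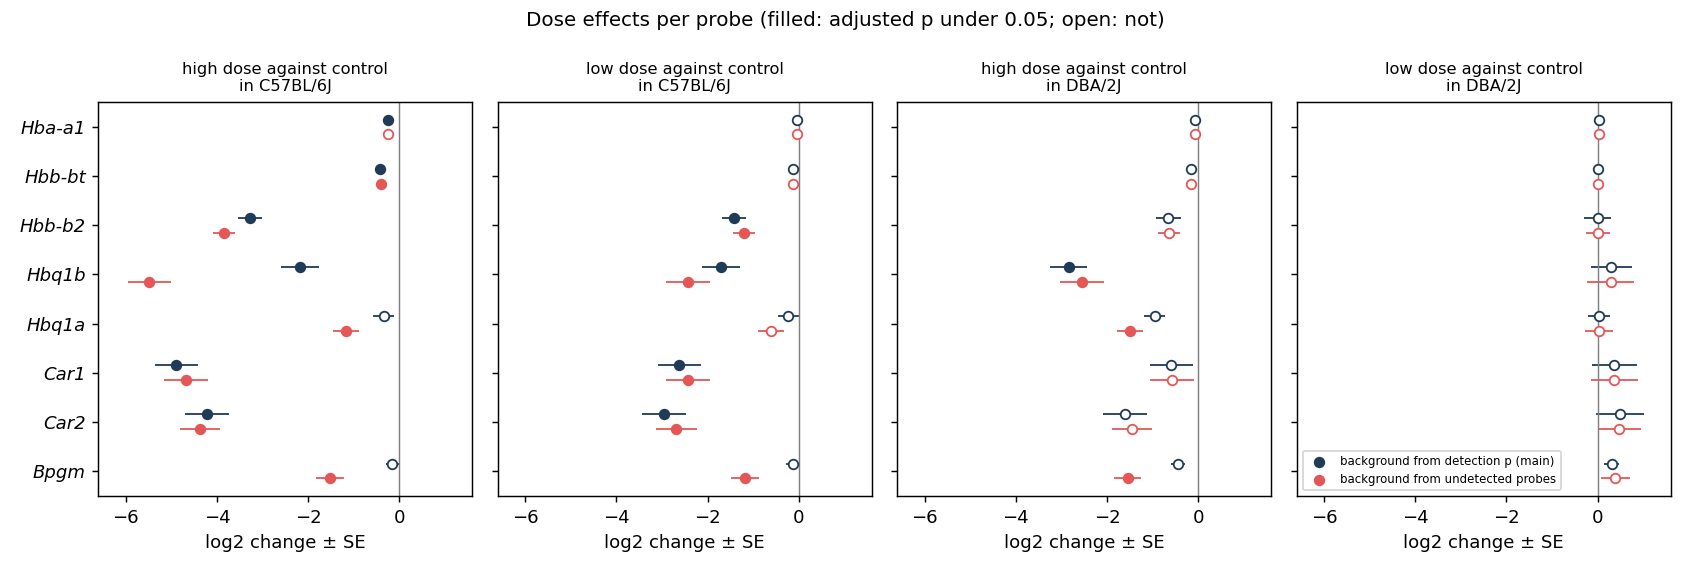
Log2 change ± SE of each of the 8 probes for each dose against control in each strain, from limma over all 18423 probes, with the background from detection p-values (dark) and from undetected probes (light). Filled points have an adjusted p under 0.05. In C57BL/6J Car1, Car2, Hbb-b2 and Hbq1b lie below 0 at both doses, in DBA/2J only Hbq1b is filled for both backgrounds at the high dose, and no point is filled for DBA/2J at the low dose.

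The Hba-a1 probe changed little, but it lay near the top of the scale. Where it was the brightest probe of its array, as in every DBA/2J low dose pool, it received the same normalized value. The size of any change in alpha globin RNA is therefore uncertain, and so are the SE and p-value of this probe, which rest in part on tied values. Hba-a1, an adult alpha chain gene, gave signals of 63499, 64620, 67830 and 65684 in C57BL/6J control pools and 53570, 64990, 49926 and 55091 after the high dose. The high dose pools lay lower except pool 2, which overlapped the controls. The change was -0.25 ± 0.06 on the log2 scale (1.19-fold lower, adjusted p = 0.0182). The call was lost with the second background (adjusted p = 0.125) and with plain signals scaled to a common median (-0.23 ± 0.10, adjusted p = 0.232). It was also lost without both pools with pancreatic transcripts (adjusted p = 0.115), and without control pool 2, high dose pool 1 or high dose pool 3 (adjusted p up to 0.0720). After the low dose the signals were 67847, 64710, 68047 and 59178, across the control range. DBA/2J pools held 63873, 63217, 65528 and 66887 in control, 62241, 63822 and 65306 after the low dose and 58004, 61629, 64232 and 62044 after the high dose. Those groups overlapped, and the high dose change was -0.07 (95% interval -0.20 to 0.05). Between both doses in C57BL/6J the change was -0.22 ± 0.06 (adjusted p = 0.280), which passed without high dose pool 2 (adjusted p = 0.00127).

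Between the strains' controls the Hbb-b2 probe differed past the threshold and the Hbb-bt probe did not. Hbb-bt gave signals of 52631, 52897, 52548 and 52766 in C57BL/6J control and 41783, 43640, 36809 and 38820 after the high dose. All 4 high dose pools lay below all controls, with a change of -0.41 ± 0.05 (1.33-fold lower, adjusted p = 9.77e-05). Under median scaling and cyclic loess the adjusted p was 0.0643 and 0.173. After the low dose the pools held 47230, 47585, 55086 and 47235, with pool 3 above every control and the others below them. That change, -0.13, did not pass (adjusted p = 0.242). The difference between both doses, -0.28 ± 0.05, had an adjusted p of 0.0301, but 0.512 with the second background, 0.162 without both pools with pancreatic transcripts, and up to 0.121 without high dose pool 1 or 3 or low dose pool 2, 3 or 4.

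In DBA/2J the Hbb-bt probe read 45312, 44041, 51438 and 49856 in control, 43260, 43229 and 50357 after the low dose and 36601, 36223, 48524 and 46205 after the high dose. High dose pools 3 and 4 lay within the control range and pools 1 and 2 below it. Against control the high dose gave -0.16 ± 0.05 (adjusted p = 0.182). Against the low dose it was -0.17 ± 0.06 with an adjusted p of 0.0253, or 0.177 with the second background. Leaving out high dose pool 1 or 2 or low dose pool 1 or 3 also lost that call (adjusted p up to 0.111). The strains' controls did not differ past the threshold (-0.14 for DBA/2J over C57BL/6J, adjusted p = 0.0950), except without C57BL/6J control pool 4 (adjusted p = 0.0365).

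Hbb-b2, the minor adult beta chain of the diffuse haplotype, had signals of 27142, 31703, 39225 and 38313 in DBA/2J control and 2658, 6513, 2396 and 2775 in C57BL/6J control. No pool of the second strain came near the first. DBA/2J was 12.3-fold higher (3.62 ± 0.27 on the log2 scale, adjusted p = 2.58e-08). In C57BL/6J the Hbb-b2 signal was 1662, 1386, 2327 and 802 after the low dose and 306, 355, 305 and 259 after the high dose. The 3 groups did not overlap and were ordered by dose. Against control, the low dose gave -1.42 ± 0.27 (2.67-fold lower, adjusted p = 0.0111) and the high dose -3.27 ± 0.27 (9.67-fold lower, adjusted p = 1.48e-06). High dose pools were 3.61-fold lower than low dose pools (-1.85 ± 0.27, adjusted p = 0.00374), or 6.26-fold with the second background. In C57BL/6J this probe's signal was low where the haplotype lacks the named gene, and what it measures there was not tested.

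DBA/2J pools held Hbb-b2 signals of 29512, 29960 and 37308 after the low dose and 23283, 17880, 24000 and 23637 after the high dose. All high dose pools lay below all controls, and the low dose pools lay among them. The high dose change of -0.66 ± 0.27 did not pass the test over all probes (adjusted p = 0.329, 95% interval -1.23 to -0.08). The high dose fall of this probe was smaller in DBA/2J than in C57BL/6J by 2.62 ± 0.39 (6.14-fold, adjusted p = 0.00763). C57BL/6J lacks the named gene, so the strains may be compared on unlike transcripts, which was not tested. The strain difference of Hbb-b2 was 1 of 2 among the 8 probes to be called, against 0.147% of all probes. The other was that of Car1. The second background gave 3 of 8, with Car2 added, against 0.499%. For the low dose, the strain difference of Hbb-b2 was 1.42 ± 0.40 (adjusted p = 0.0243), and it was lost without DBA/2J low dose pool 1 or 3 (adjusted p up to 0.0678). In all, 4 of 8 strain differences of the low dose effect were called (Hbb-b2, Hbq1b, Car1 and Car2), against 8.27% of all probes, or 5 of 8 with Bpgm under the second background, against 8.97%.

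The theta globin genes lie beside the adult alpha genes and encode an alpha-like chain whose role in hemoglobin is unsettled. Hbq1b had signals of 1372, 2564, 998 and 1695 in C57BL/6J control, 422, 252, 1000 and 167 after the low dose and 121, 101, 114 and 88.3 after the high dose. Detection failed in all 4 high dose pools, so the fall there is given as a nominal bound, 4.52-fold below control (adjusted p = 0.00337). The bound depends on the background: it was 42.6-fold with the second background and 14.4-fold with plain signals scaled to a common median. Each bound compares the control mean with the lowest value of any detected probe in each high dose pool, or with the probe itself where it read higher. The low dose change was -1.70 ± 0.41 (3.26-fold lower, adjusted p = 0.0433). Low dose pool 3 was level with the lowest control pool and the other 3 lay well below. This call was lost without any of 6 pools taken singly, which were control pools 1, 2 and 4 and low dose pools 1, 2 and 4 (adjusted p up to 0.150), and without both pools with pancreatic transcripts (adjusted p = 0.0767). With the second background the low dose change was -2.42 ± 0.48 (adjusted p = 0.00480). The nominal bound for high against low dose, taken from the low dose mean, was 7.95-fold there (adjusted p = 0.00230). It was 1.39-fold in the main values (adjusted p = 0.9997) and 3.44-fold with plain signals (adjusted p = 0.163), neither of them called. These bounds leave out the spread between pools. In the main values the change was -0.48 (95% interval -1.34 to 0.39), so no fall between the doses was shown. With the second background the interval was -4.05 to -2.07.

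In DBA/2J Hbq1b read 6199, 4013, 4753 and 3471 in control, 6984, 2403 and 7244 after the low dose and 581, 705, 1599 and 1310 after the high dose. Every high dose pool lay below every other DBA/2J pool, with pools 3 and 4 above pools 1 and 2. The high dose change of -2.84 ± 0.41 (7.16-fold lower, adjusted p = 0.00439) was the only one of the set called for both backgrounds in DBA/2J. The low dose change was 0.30 (95% interval -0.63 to 1.23). Controls of DBA/2J were 4.15-fold higher than those of C57BL/6J (2.05 ± 0.41, adjusted p = 0.00223). Hbq1b, Hbq1a and Hbb-b2 were the 3 of 8 probes called higher in DBA/2J controls, against 4.47% of all probes. With the second background Bpgm joined them, 4 of 8 against 5.30%. The strain difference of the high dose effect on Hbq1b changed its sign with the background. It was -0.66 ± 0.58 in the main values (adjusted p = 1.00) and 2.94 ± 0.68 with the second background (adjusted p = 0.0501). The undetected C57BL/6J high dose pools averaged 7.86 on the main log2 scale, near its floor. The strain difference of the low dose effect was 2.00 ± 0.60 (adjusted p = 0.0320), lost without any of 9 pools taken singly, namely C57BL/6J control 2 or 4, C57BL/6J low dose 1, 2 or 4, DBA/2J control 2 or 4, or DBA/2J low dose 1 or 3 (adjusted p up to 0.111).

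Hbq1a, the near copy of Hbq1b, moved less on its own probe. Its signals were 546, 788, 332 and 339 in C57BL/6J control, 321, 321, 378 and 268 after the low dose and 258, 313, 255 and 187 after the high dose. The high dose pools lay below all controls, but the main change of -0.34 ± 0.23 did not pass (adjusted p = 0.453). With the second background it was -1.16 ± 0.29 (2.23-fold lower, adjusted p = 0.0127). In DBA/2J the signals were 1105, 916, 878 and 614 in control, 988, 559 and 670 after the low dose and 475, 325, 450 and 342 after the high dose. All high dose pools lay below both other groups. The high dose change was -0.96 ± 0.23 (adjusted p = 0.0513), and 2.83-fold lower with the second background (adjusted p = 0.0122). Leaving out DBA/2J control pool 4 brought the main value past the threshold (adjusted p = 0.0283). High against low dose was -0.98 ± 0.24 (adjusted p = 0.00592), lost without low dose pool 1 (adjusted p = 0.0598). DBA/2J controls were 1.75-fold higher than C57BL/6J controls (0.81 ± 0.23, adjusted p = 0.0260), or 2.28-fold with the second background. That call was lost without C57BL/6J control pool 3 or 4 or DBA/2J control pool 1 or 3 (adjusted p up to 0.0864), and without both pools with pancreatic transcripts (adjusted p = 0.0588).

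Carbonic anhydrases turn carbon dioxide and water into bicarbonate and a proton, which lets red cells carry carbon dioxide to the lungs. Car1, an abundant red cell form, had the largest main change of the set, exceeded only by that of Hbq1b with the second background. Its signals were 15376, 19935, 11957 and 21262 in C57BL/6J control, 3194, 2221, 8902 and 1487 after the low dose and 994, 287, 1096 and 1084 after the high dose. The 3 groups did not overlap, low dose pool 3 stood above its group, and high dose pool 2 below. In that strain Car1 changed by -2.62 ± 0.46 after the low dose (6.13-fold lower, adjusted p = 0.00655) and by -4.89 ± 0.46 after the high dose (29.6-fold lower, adjusted p = 7.17e-06). High against low dose was -2.27 ± 0.46 (adjusted p = 0.0547). It passed without high dose pool 4 or low dose pool 4 (adjusted p down to 0.0139).

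In DBA/2J Car1 read 26143, 15386, 18213 and 16612 in control, 27559, 15263 and 31775 after the low dose and 9667, 11099, 19329 and 17566 after the high dose. High dose pools 1 and 2 lay below all controls and pools 3 and 4 within their range. The high dose change was -0.59 (95% interval -1.56 to 0.39) and the low dose change 0.37 (-0.69 to 1.42). The strains' controls differed by 0.27 (-0.71 to 1.25). The high dose effect differed between the strains by 4.30 ± 0.66 (19.7-fold, adjusted p = 0.00764) and the low dose effect by 2.98 ± 0.68 (7.92-fold, adjusted p = 0.00909).

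Car2 encodes the fast carbonic anhydrase of red cells, which is made in other tissues too. Its signals in C57BL/6J were 5342, 9370, 3897 and 8496 in control, 1005, 852, 3228 and 438 after the low dose and 450, 324, 431 and 351 after the high dose. Controls lay above all irradiated pools, while the lowest low dose pool fell inside the high dose range. Detection of this probe was called in 2 of 4 low dose and 1 of 4 high dose pools. Car2 changed by -2.95 ± 0.49 after the low dose (7.75-fold lower, adjusted p = 0.00454) and by -4.22 ± 0.49 after the high dose (18.6-fold lower, adjusted p = 5.06e-05). The 2 doses differed by -1.26 ± 0.49 (adjusted p = 0.687).

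In DBA/2J Car2 read 9542, 6268, 6595 and 6481 in control, 12395, 4489 and 14112 after the low dose and 1979, 2395, 4158 and 3934 after the high dose. Each high dose pool lay below every other DBA/2J pool, again with pools 3 and 4 above pools 1 and 2. The high dose change of -1.61 ± 0.49 did not pass over all probes (adjusted p = 0.142, or 0.0994 with the second background, 95% interval -2.64 to -0.57). Against the low dose it was -2.10 ± 0.53 (4.28-fold lower, adjusted p = 0.00657). The low dose effect differed between the strains by 3.45 ± 0.72 (10.9-fold, adjusted p = 0.00601). The high dose effect differed by 2.61 ± 0.70, which passed with the second background (2.92 ± 0.62, adjusted p = 0.0303) and not in the main values (adjusted p = 0.230).

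Bpgm encodes bisphosphoglycerate mutase, which makes the glycolytic by-product 2,3-bisphosphoglycerate that lowers the oxygen affinity of hemoglobin. Its probe was dim. Signals were 209, 336, 206 and 268 in C57BL/6J control, 153, 127, 228 and 128 after the low dose and 151, 141, 137 and 122 after the high dose. The high dose pools lay below the controls, and only 1 of 4 was detected. Bpgm changed by -0.15 ± 0.15 after the high dose in the main values (adjusted p = 0.662) and -1.51 ± 0.30 with the second background (2.85-fold lower, adjusted p = 0.00228). The low dose change was -0.12 ± 0.15 (adjusted p = 0.765) and -1.17 ± 0.30 (adjusted p = 0.0314) in the same order.

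In DBA/2J Bpgm read 571, 456, 377 and 453 in control, 539, 268 and 735 after the low dose and 243, 188, 238 and 256 after the high dose. High dose pools lay below all other DBA/2J pools, and 1 of 4 was detected. After the high dose the change was -0.44 ± 0.15 (adjusted p = 0.196), and -1.55 ± 0.30 with the second background (2.92-fold lower, adjusted p = 0.0126). High against low dose was -0.74 ± 0.16 (1.67-fold lower, adjusted p = 0.00255), or 3.83-fold with the second background. The low dose change against control, 0.31 ± 0.16, passed only without low dose pool 2 (adjusted p = 0.000595). DBA/2J controls exceeded C57BL/6J controls by 0.40 ± 0.15 (adjusted p = 0.108), or by 1.32 ± 0.30 with the second background (2.50-fold, adjusted p = 0.00390). The strain difference of the low dose effect was 0.43 ± 0.22 (adjusted p = 0.177), and 1.57 ± 0.44 with the second background (adjusted p = 0.0171). The main value also passed without DBA/2J control pool 1 or low dose pool 2 (adjusted p down to 0.000833).

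**Figure D3:**
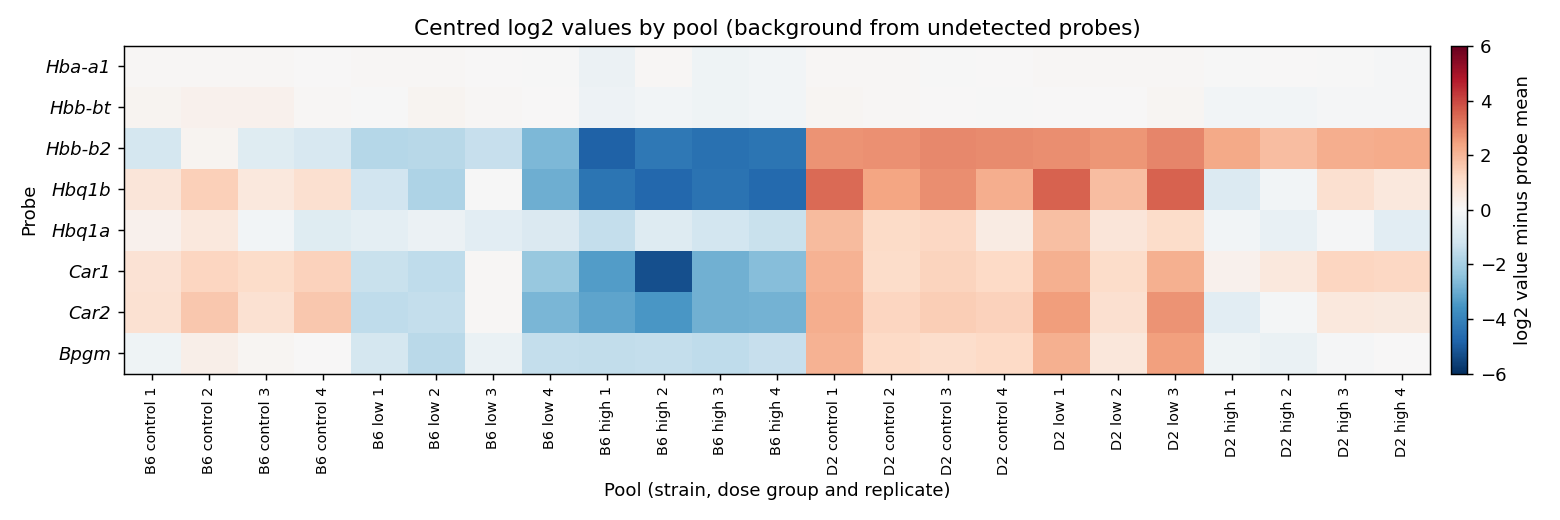
Log2 value of each probe in each pool minus the probe's mean over 23 pools, with the background from undetected probes (red higher, blue lower; B6, C57BL/6J; D2, DBA/2J). Car1, Car2, Hbq1b and Bpgm share their high and low pools within groups, such as the high B6 low dose pool 3 and the low D2 low dose pool 2, and the rows of Hba-a1 and Hbb-bt are nearly flat.

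Within groups, some of these genes deviated together from pool to pool, and over all pairs r ranged from -0.20 to 0.88. Deviations of the 23 pools from their group means correlated at r = 0.88 between Car1 and Car2, 0.87 between Hbq1b and Car2, 0.71 between Hbq1b and Car1 and 0.73 between Hbq1b and Bpgm. Between Hbq1b and Hbq1a r was 0.60, and between Hba-a1 and Car1 it was -0.20. These last values were 0.37 and -0.44 with the second background. C57BL/6J low dose pool 3 had the highest deposited signal of its group for all 8 probes, which after normalization held for Car1, Car2, Hbb-b2, Hbq1b and Bpgm and not for Hba-a1, Hbb-bt and Hbq1a. These values describe arrays that share their RNA and normalization across probes, and they carry no test.

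Of the globin genes beyond the named set, 4 of 12 listed were measured. They were Hbb-bt and Hbq1a, described above, and Cygb and Ngb, the globins of fibroblast-like and nerve cells. Cygb changed by 0.69 ± 0.26 after the high dose in C57BL/6J (adjusted p = 0.146) and Ngb by 0.00 ± 0.02. Among other carbonic anhydrases, 0 of 9 measured of 14 listed were called after either dose in C57BL/6J or after the high dose in DBA/2J, by limma. At an unadjusted p under 0.05 there were 1 after the high and 0 after the low dose in C57BL/6J, and 1 in DBA/2J. Over all 18423 probes 1091, 296 and 179 were called in either direction in the same order, so 0 of 9 lies near those shares. Their median change after the high dose in C57BL/6J was 0.00, against 0.01 over all probes. Car13 was called higher after the low dose in DBA/2J (0.23 ± 0.07, adjusted p = 0.0485), against 7.76% of all probes called in either direction. The second background called 0 of 9 in that comparison, so the call was lost, 1 of 9 higher after the high dose in C57BL/6J and 0 of 9 after that dose in DBA/2J. Over all 18423 probes it called 1820, 1414 and 260 in either direction in the same order.

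Channels, transporters and blood group proteins of the red cell membrane, taken as 1 list, fell with Car1 and Car2 in C57BL/6J. After the high dose 8 of 9 measured (of 10 listed) were lower, with a median change of -1.97, against 2.35% of all probes. After the low dose 7 of 9 were lower, with a median of -1.72, against 1.06% of all probes. Slc4a1, the chloride and bicarbonate exchanger that works with the carbonic anhydrases, changed by -5.27 ± 0.42, Kel, a blood group protein, by -3.71 ± 0.54 and Ermap, another, by -3.08 ± 0.49. In DBA/2J 3 of 9 fell after the high dose (Ermap, Rhag and Aqp9, median -1.30), against 0.380% of all probes, and 0 of 9 after the low dose (median 0.46, 1 at an unadjusted p under 0.05). Heme synthesis and mitochondrial iron import lost 7 of 11 measured genes (of 13 listed) after the high dose in C57BL/6J, with a median of -1.79, and 4 of 11 after the low dose, with a median of -1.32. Alas2, which starts heme synthesis in red cell precursors, changed by -4.69 ± 0.38, the iron importer Slc25a37 by -3.30 ± 0.39 and Tspo2 by -2.06 ± 0.35. In DBA/2J 3 of 11 fell after the high dose (Alas2, Slc25a37 and Uros, median -1.08) and 0 of 11 after the low dose (median 0.57, 2 at an unadjusted p under 0.05). Under the second background heme synthesis gave 9 of 11 lower after the low dose in C57BL/6J and 7 of 11 after the high dose in DBA/2J, and the membrane list 9 of 9 and 2 of 9. Over all probes 2.81% and 1.03% were called lower there. The median over all probes lay between 0.00 and 0.01 in each of these comparisons. After the low dose in DBA/2J 7.76% of all probes were called in either direction.

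Of the glycolytic enzymes around the bisphosphoglycerate step, 1 of 13 measured (of 16 listed) fell after the high dose in C57BL/6J, Hk1 with -1.17 ± 0.29 (adjusted p = 0.0226), against 2.35% of all probes, and the median was -0.07. In DBA/2J 0 of 13 were called after the high dose (median 0.04, 1 at an unadjusted p under 0.05), beside 179 of 18423 probes called in either direction. After the low dose 1 of 13 was higher, Ldha with 0.26 ± 0.06 (adjusted p = 0.0183), close to the 7.76% of all probes called in either direction. That call was lost with the second background, which gave 0 of 13. Genes that protect hemoglobin or respond to heme gave 4 of 9 lower after the high dose in C57BL/6J, with a median of -0.22. These were Prdx2, a red cell peroxidase (-1.94 ± 0.28), Eif2ak1, the heme-regulated kinase that controls globin translation (-1.48 ± 0.32), Blvrb, a biliverdin reductase (-1.36 ± 0.32), and Gpx1, a glutathione peroxidase (-0.59 ± 0.15). After the low dose 2 of 9 fell in that strain (Prdx2 and Blvrb), against 1.06% of all probes. In DBA/2J 0 of 9 were called at either dose (5 after the high and 1 after the low dose at an unadjusted p under 0.05). Over all 18423 probes 179 were called in either direction after the high dose and 1430 after the low dose. After the high dose in DBA/2J 2 of 9 were lower with the second background, against 1.03% of all probes.

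Among transcription factors and receptors of the erythroid lineage, 3 of 11 measured (of 13 listed) fell after the high dose in C57BL/6J. The median was -0.56, and 2.35% of all probes were called lower. These were Klf1, which binds CACCC elements of adult globin promoters (-4.42 ± 0.52), Tal1 (-4.11 ± 0.43) and Nfe2 (-3.73 ± 0.43). The same 3 fell after the low dose, by -3.26 ± 0.52, -2.75 ± 0.43 and -2.82 ± 0.43, against 1.06% of all probes. Gata1 changed by -0.76 ± 0.33 after the high dose (adjusted p = 0.203). In DBA/2J 0 of 11 were called at either dose, with medians of -0.58 after the high dose and 0.34 after the low dose (7 and 5 at an unadjusted p under 0.05). Over all 18423 probes 179 were called in either direction after the high dose and 1430 after the low dose. With the second background the counts after the high dose in C57BL/6J were 9 of 9 for the membrane list, 10 of 11 for heme synthesis, 3 of 13 for glycolysis, 4 of 9 for hemoglobin protection and 7 of 11 for regulators, against 4.51% of all probes. For regulators it also gave 6 of 11 lower after the low dose in C57BL/6J, against 2.81% of all probes, and 2 of 11 after the high dose in DBA/2J, against 1.03%.

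**Figure D4:**
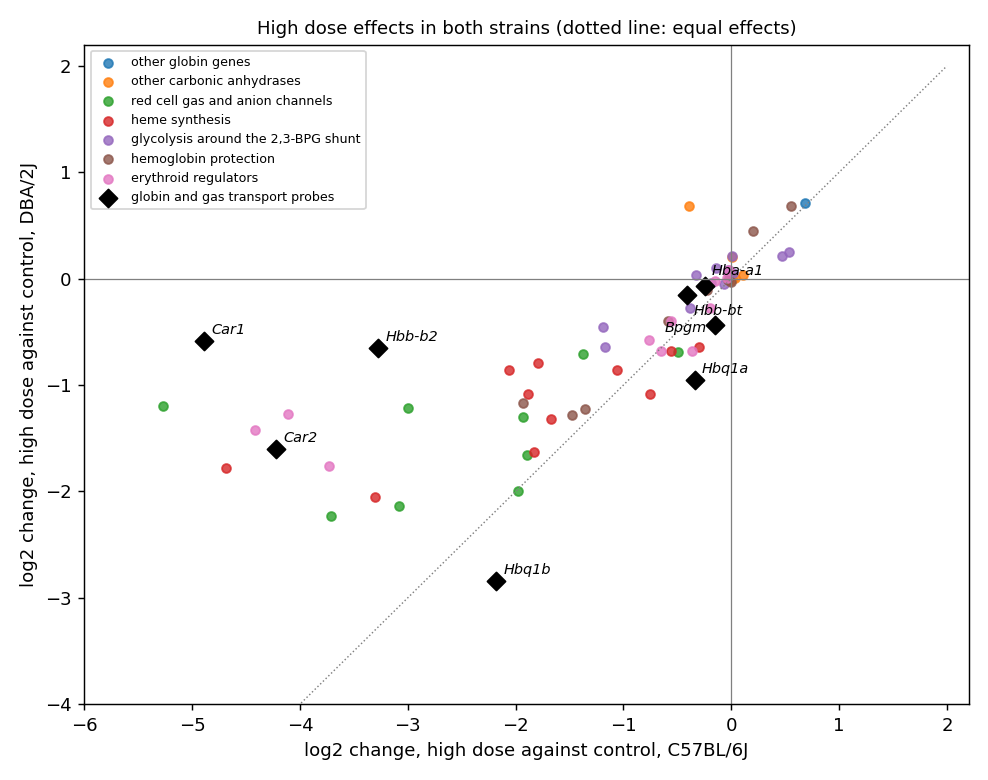
Log2 change after the high dose in C57BL/6J (x axis) and in DBA/2J (y axis) for the 8 probes (diamonds, labelled) and the measured genes of 7 pathway lists (circles), main values. The dotted line marks equal changes. Car1 (-4.89 and -0.59), Hbb-b2 (-3.27 and -0.66) and Car2 (-4.22 and -1.61) lie above the line among the diamonds, as do Hbb-bt and Hba-a1 nearer to it. Hbq1b (-2.18 and -2.84), Hbq1a and Bpgm lie below it. Hbq1b was undetected in the C57BL/6J high dose pools, and with the second background, not drawn here, its changes were -5.48 and -2.54.

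The genes whose level over the 23 pools was most like the mean of the 6 members, among 11342 others, were Ctse (r = 0.987), Klf1 (0.985), Alad (0.979), Mgst3 (0.979), Aqp1 (0.979), Tal1 (0.974), Slc38a5 (0.971) and Sptb (0.969). Within groups the same correlations were 0.915 for Ctse, 0.945 for Klf1, 0.779 for Alad, 0.935 for Mgst3, 0.919 for Aqp1, 0.908 for Tal1, 0.945 for Slc38a5 and 0.926 for Sptb. Sptb is the beta spectrin of the red cell skeleton, Aqp1 its water channel and Alad the second enzyme of heme synthesis. Ctse, a cathepsin found in red cells, changed by -3.44 ± 0.46 after the high dose in C57BL/6J, and Slc38a5, an amino acid transporter, by -4.77 ± 0.51.

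Markers of other cells were also called in some of these comparisons, beside 2.35% and 1.06% of all probes called lower after the high and low dose in C57BL/6J and 7.76% called in either direction after the low dose in DBA/2J. All 8 granulocyte markers measured were lower in C57BL/6J after both doses (median -3.98 after the high and -3.76 after the low dose, summed signal 54325 to 172557 in control, 15319 to 30373 after the low and 14976 to 31355 after the high dose), and all 8 were detected in every pool. In DBA/2J after the high dose, where Hbq1b fell, 0 of 8 were called by limma (median 0.31, 0 at an unadjusted p under 0.05). Over all 18423 probes 179 were called in either direction in that comparison. Megakaryocyte and platelet markers were lower in C57BL/6J for 3 of 6 after the high and 4 of 6 after the low dose, and higher in DBA/2J after the low dose for 4 of 6. The second background gave 6 of 6 at both doses in C57BL/6J and 5 of 6 in DBA/2J. Of 6 T cell markers measured, 1 was higher after each dose in C57BL/6J, and of 5 B cell markers 0 were (1 at an unadjusted p under 0.05 for each dose), while 3 of 5 B cell markers were lower in DBA/2J after the low dose. The T cell calls in C57BL/6J were lost with the second background, which called 3 of 6 T cell markers lower in DBA/2J after the low dose. The early erythroid markers gave 1 of 4 lower after each dose in C57BL/6J, Tfrc, the transferrin receptor, with -3.68 ± 0.49 and -2.50 ± 0.49. The second background gave 2 of 4 lower after each dose there. In DBA/2J 1 of 4 was higher after the low dose and 0 of 4 were called after the high dose, with either background. Of 4 macrophage markers 0 were called for either dose against control, with up to 2 at an unadjusted p under 0.05. The part of these shifts in the globin and carbonic anhydrase changes was not tested. Leaving out both pools with pancreatic transcripts left the high dose calls of Car1, Car2, Hbb-b2, Hbq1b and Hbb-bt in C57BL/6J in place, 5 of 8.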

How the data were processed

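Spleen RNA was measured on 23 one-colour Illumina arrays. The authors deposited the raw intensity of every probe, linear and without normalization per the file headers, beside its detection p-value. A second deposited table holds log2 values of unknown transform, used as an alternative. The tool lumi is named in the submitters' processing notes, without a version.

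Processing of the signals used limma 3.58.1 (R 4.3.3): background mean and SD inferred from the detection p-values, normexp correction (offset 16), then quantile normalization, then log2. Probes with a detection p under 0.05 on at least 3 arrays were kept, and 18423 of 34492 were tested, each on its own. Probe names come from the platform annotation (20256 probes with 1 symbol, 9 with several, 14227 with none), of which 20213 matched the RefSeq gene table.

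The 23 arrays entered 1 linear model of 6 group means (lmFit, eBayes), which gave 9 comparisons, including both strain differences of a dose effect (interactions). Benjamini-Hochberg adjustment ran over all 18423 probes of a comparison, with calls at 0.05. Values are log2 changes ± SE unless named otherwise, and folds are 2 to the power of the log2 change.

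Between 274 and 456 probes per array had a signal over 500 with a detection p of 0.05 or more, so the deposited detection p does not follow the signal alone. Hence the added second background, taken from the median and MAD of signals with a detection p of 0.05 or more. The fit was tested on simulated data. Arrays of a group shared at most 1 equal signal, and the number of arrays limits the precision. Named genes are every probe of the set, the 8 genes most like it, and up to 3 called genes per pathway list, with others where a count is small. The members and lists were chosen with earlier results of these data known, so list counts are descriptions. A DBA/2J variant in the sequence a probe binds can alter the signal with no change of transcript.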

Additional observations from a re-analysis of the deposited data

Results flagged for a closer look

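In 40 checks of single pools against their group of 4, chance alone would single out about 1 in 20. Hba-a1 in C57BL/6J control pool 4 stood at 15.95 on the log2 scale, below the other 3 pools, which all sat at 15.98 because the brightest probe of every array receives the same quantile-normalized value. Its signal of 65684 lay within the group. Bpgm in DBA/2J control pool 1 stood at 8.85, above the other pools at 8.28 to 8.34, with a signal of 571.

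Dose effects that differed between the strains, by the interaction term, drew attention as well. For the high dose they were those of Car1 (4.30) and Hbb-b2 (2.62), each less negative in DBA/2J. For the low dose they were Car2 (3.45), Car1 (2.98), Hbq1b (2.00) and Hbb-b2 (1.42), and these rest on the DBA/2J low dose pools that stood apart.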

How the results depend on the processing

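Beside the main values, 47 results were recomputed under 11 alternatives, 517 values in all. Of these, 449 kept their direction and side of the threshold (or, for counts, stayed within 1.5 times), 27 were weaker, 37 stronger and 4 reversed. The rest of this paragraph gives the counts of called probes among the 8 that moved further. High against low dose in C57BL/6J gave 1 in place of 2 without background correction (quantile), under median scaling, plain signals, cyclic loess and the authors' processed values, and without both pools with pancreatic transcripts. Leaving out 1 pool gave 1 to 3. The high dose in DBA/2J gave 3 in place of 1 without background correction (quantile), with plain signals, array weights or the second background, and 2 with 1 probe per gene symbol or the authors' values. Leaving out 1 pool gave 1 to 2, with 2 without DBA/2J control pool 4. The low dose in DBA/2J gave 1 in place of 0 with array weights, and 0 to 1 when 1 pool was left out, with Bpgm called without low dose pool 2. High against low dose in DBA/2J ranged from 3 to 5 when 1 pool was left out, with 3 without low dose pool 1. DBA/2J against C57BL/6J control gave 5 in place of 3 with array weights, and 2 to 3 when 1 pool was left out. The strain difference of the high dose effect gave 4 in place of 2 with array weights. That of the low dose effect ranged from 2 to 5 when 1 pool was left out, with 2 without DBA/2J low dose pool 1 or 3. In C57BL/6J the counts when 1 pool was left out were 5 to 6 for the high and 3 to 4 for the low dose. The strain difference of the high dose effect on Hbq1b, -0.66, reversed to 1.43 without background correction, 1.59 with plain signals, 0.033 in the authors' values and 2.94 with the second background. The cause was not tested. Over all 18423 probes, the high dose in DBA/2J called 179, and 14 to 112 when 1 pool was left out. Its low dose called 1430, and 222 to 4893 in the same way. No paired analysis was possible because the labels give the groups no shared replicate numbers. The slide as a block was not run, as no header gives a slide. Signals of Bpgm, Hbq1a and Hbq1b near background, and of Car2 in irradiated C57BL/6J pools, limit what their changes can show.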
